A study of Mus musculus with 50 samples.

Results

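The expression of 9 poly(ADP-ribose) polymerase family genes (Parp1, Parp2, Parp3, Parp8, Parp9, Parp10, Parp11, Parp12 and Parp14) and of Dtx3l, the ubiquitin ligase partner of Parp9, was followed in developing mouse oligodendrocytes exposed to interferon-γ or thapsigargin. These 10 genes were taken by symbol from a table of 39056 gene entries, of which 16460 had enough reads to be tested, all 10 among them. The cells were oligodendrocyte progenitors immunopanned from the cortices of 6-day-old C57BL/6 pups, passaged 2 times and allowed to differentiate before treatment. They were wild type or Nrf2 -/-, that is, lacking the gene Nfe2l2, whose product NRF2 is a transcription factor of the oxidative stress response. Within each genotype, cells were left untreated or given 200 U/ml interferon-γ for 1, 8, 24 or 48 h, or given thapsigargin, an inhibitor of the endoplasmic reticulum calcium pump with a labelled concentration of 200 µM, for 1 or 8 h. Each of the 20 groups held 2 wild type or 3 Nrf2 -/- libraries, 50 in all, so each treatment and hour was covered by 5 libraries. The labels state no cell type or age to which the deletion was restricted, and the design text speaks of 4 mutant replicates where 3 are analysed here. The labels do not say that replicates came from separate cultures, so the p-values measure only the spread between these libraries.

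The libraries held 32.25 M to 54.66 M reads counted to genes (median 36.04 M, M being mega). Nfe2l2 lay between 5.13 and 70.4 counts-per-million (CPM) in the 20 wild type libraries and between 0.0973 and 0.859 CPM in 29 of the 30 libraries labelled Nrf2 -/-. The library labelled Nrf2 -/- untreated 8 h replicate 3 stood at 7.62 CPM, inside the wild type range, and leaving it out changed 0 of the 60 member results that use it in direction or call. The replicate 2 library of each Nrf2 -/- 8 h group (3 libraries) carries a wild type genotype tag beside a mutant title, and its Nfe2l2 level lay among those of the other mutant libraries (0.178, 0.218 and 0.669 CPM). One more library stood apart for the genes described here, namely Nrf2 -/- untreated 24 h replicate 2, which is described with the 24 h values. The tissue tag reads whole brain while the growth protocol names cortices. Markers of the oligodendrocyte lineage summed to 2880 to 36300 CPM per library. Microglial markers summed to 3.84 to 11.3 CPM. Most of this came from Cd68 (median 4.22, highest 8.15 CPM) and P2ry12 (median 2.83, highest 7.62 CPM). Aif1, C1qa and C1qb were at 0 in every library, and the remaining microglial markers reached at most 0.218 CPM (Ptprc). Markers of endothelial, mural and fibroblast cells summed to at most 1.34 CPM. Astrocyte markers summed to 162 to 725 CPM and neuronal markers to 11.6 to 42.3 CPM. Most of the astrocyte sum came from S100b and Aldoc (medians 204 and 184 CPM). The other astrocyte markers had medians from 0.0778 (Gja1) to 27 CPM (Slc1a3), Gfap standing at 3.81 and Aqp4 at 1.09 CPM.

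Enzymes of this family transfer ADP-ribose from NAD onto proteins or nucleic acids. PARP1 and PARP2 sense DNA breaks and build chains of poly(ADP-ribose) that recruit repair factors, whereas most other members attach a single unit or, like PARP9, are best known for macrodomains that bind ADP-ribose. PARP9 and DTX3L form a complex, their genes stand head to head, and with PARP14 and several other mono-ADP-ribosyltransferases they belong to the set of genes that interferons switch on.

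In the GENCODE M21 annotation (GRCm38) Parp14, Dtx3l and Parp9 lie together on chromosome 16. Parp14 covers chr16:35832874-35871544 on the minus strand, Dtx3l chr16:35926511-35939151 on the minus strand and Parp9 chr16:35938470-35972605 on the plus strand. Dtx3l and Parp9 overlap by 682 bases at their 5′ ends and share 458 exonic bases, and 54966 bases separate Parp14 from Dtx3l. Whether the counting used strand is not given in the sources used here, so reads from the shared exonic bases cannot be told apart. The other members are dispersed: Parp1 at chr1:180568924-180601254, Parp8 at chr13:116854820-117025537, Parp2 at chr14:50807841-50821301, Parp3 at chr9:106470322-106476949, Parp10 at chr15:76231174-76243441, Parp12 at chr6:39086410-39118349 and Parp11 at chr6:127446840-127494261. Parp10 shares 205 exonic bases with Plec and Parp14 shares 110 with Gm49730, both on the same strand, while Parp3 shares 20 with Rrp9.

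Parp11 is annotated with separate start sites, and the 250 bases before 2 of them are shown because transcripts from these starts behaved differently under interferon-γ. Both are on the plus strand of GRCm38.p6, from RefSeq, written 5′ to 3′. The upstream window is chr6:127446590-127446839, and the downstream window, which precedes the RefSeq start nearest to the downstream transcript's, is chr6:127453377-127453626. Capitals mark the stretch that matched 2 interferon motifs.
Parp11 upstream start: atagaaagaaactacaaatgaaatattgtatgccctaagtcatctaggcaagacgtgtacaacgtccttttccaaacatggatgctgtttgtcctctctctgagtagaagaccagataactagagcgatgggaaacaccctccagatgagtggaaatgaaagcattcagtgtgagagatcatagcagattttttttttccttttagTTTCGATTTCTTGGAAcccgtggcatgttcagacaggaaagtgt
Parp11 downstream start: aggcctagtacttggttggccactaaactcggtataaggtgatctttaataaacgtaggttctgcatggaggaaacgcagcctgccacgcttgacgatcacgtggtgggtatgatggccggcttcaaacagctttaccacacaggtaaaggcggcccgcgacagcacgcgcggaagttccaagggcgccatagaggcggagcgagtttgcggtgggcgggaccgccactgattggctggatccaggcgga
The first motif was the core of the interferon-stimulated response element, written GAAANNGAAA, which is bound by interferon regulatory factors. The second was the gamma-activated site, TTCNNNGAA, a known interferon-γ response element. Both strands of windows running from 250 bases before to 50 bases after each start were searched. The upstream Parp11 window held the first motif on the minus strand, 44 bases before the start (TTTCGATTTC on the plus strand), and the second 37 bases before the start (TTCTTGGAA), with the matches overlapping. Over all 32851 promoter windows of the RefSeq table, 3.44% held the first motif and 8.3% the second. The downstream Parp11 window and the windows found for Parp1, Parp2, Parp3, Parp8, Parp12 and Dtx3l held neither, nor did any window of these 7 genes hold the antioxidant response element core TGACNNNGC, present in 12.39% of all windows. Such matches describe letters in a window and were not tested for binding.

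Interferon-γ raised 7 members strongly and left Parp1, Parp2 and Parp8 within a factor of 2 of their untreated levels. Parp14, Dtx3l, Parp9, Parp10, Parp12, Parp3 and Parp11 were called higher at 8, 24 and 48 h, and all of these except Parp10 were already called higher at 1 h. Calls rest on edgeR's quasi-likelihood test at an adjusted p under 0.05, with Benjamini-Hochberg adjustment over all 16460 genes and both genotypes weighted equally. At 1 h, 6 of the 10 members were called higher, against 2.73% of all genes tested. At 8 h 8 were called higher, against 19.4% of all genes, at 24 h 8 against 27.6%, and at 48 h all 10 against 27.3%. The members were chosen with earlier results of these data known, so these counts do not speak for the whole family. Of 7 further PARP family genes 0 were called higher at 1 h and 2 at each of 8, 24 and 48 h. The median log2 fold change of the members was 0.73, 6.38, 6.00 and 5.71 at 1, 8, 24 and 48 h, while that of all genes tested lay between -0.02 and 0.00. Of the members, 0 were called lower at 1 h (0.911% of all genes), 1 at 8 h (20.4%), 1 at 24 h (28.4%) and 0 at 48 h (28.5%). At 1 h and at 48 h no member was lower at an unadjusted p below 0.05 either, and DESeq2 called 0 lower.

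**Figure D1:**
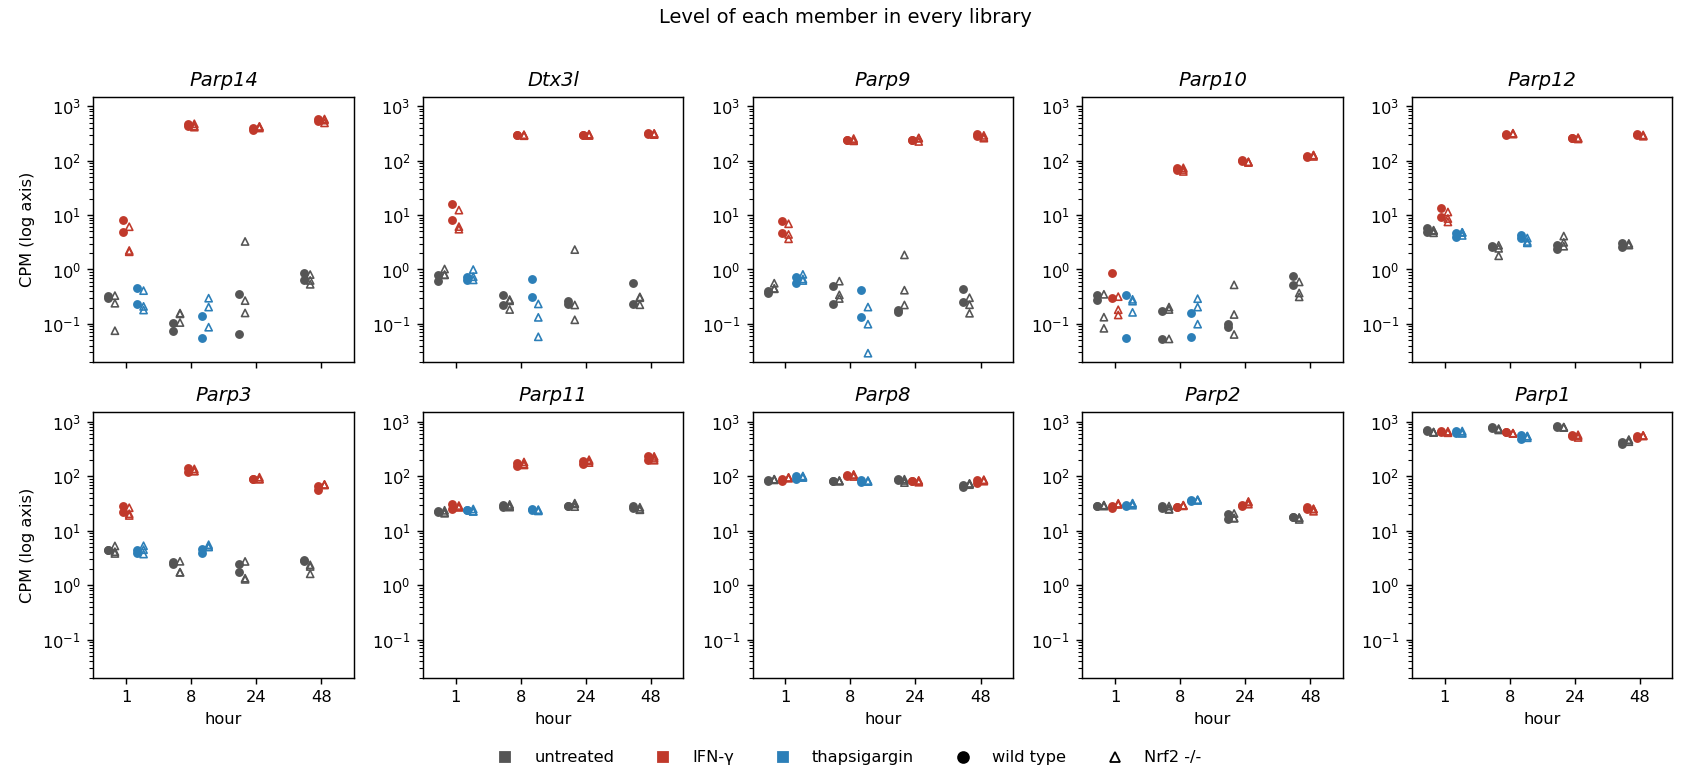
CPM of each of the 10 genes in every library (vertical log axis) by hours of treatment, with untreated, interferon-γ and thapsigargin libraries in separate colours, filled circles for wild type and open triangles for Nrf2 -/- libraries. From 8 h on, interferon-γ libraries of 7 genes lie far above the untreated ones, whereas those of Parp1, Parp2 and Parp8 stay close to them.

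Parp14, a mono-ADP-ribosyltransferase with macrodomains known as a cofactor of STAT6, went from near absence to more than 400 CPM. At 8 h its untreated level was 0.104 and 0.074 CPM in the wild type libraries and 0.106, 0.153 and 0.158 CPM in the Nrf2 -/- libraries, and its interferon-γ level was 462, 432, 432, 476 and 413 CPM in the same order. The lowest treated library lay far above the highest untreated one. The change was 11.92 ± 0.457 on the log2 scale (SE), 3880-fold, with an adjusted p of 1.56e-20 in edgeR's test. The untreated level rests on 23 reads over the 5 libraries, so the size of this fold depends on few reads. Leaving out 1 library at a time gave 11.81 to 12.05, and kallisto's summed estimates gave 10.12. At 1 h Parp14 stood at 4.82 and 8.15 CPM in wild type and 2.23, 2.12 and 6.10 CPM in Nrf2 -/- libraries under interferon-γ, against 0.075 to 0.331 CPM untreated. These groups did not overlap, and the difference was 4.18 ± 0.467 (log2, SE; adjusted p = 7.34e-08, edgeR), or 3.01 with kallisto's estimates.

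Dtx3l and Parp9 both rose strongly. Dtx3l, the E3 ubiquitin ligase of the complex, stood at 0.336, 0.221, 0.266, 0.280 and 0.184 CPM in the untreated 8 h libraries (wild type first) and at 301, 302, 299, 287 and 295 CPM under interferon-γ. Parp9, its macrodomain partner, stood at 0.233, 0.492, 0.293, 0.611 and 0.342 CPM untreated and at 242, 237, 237, 231 and 254 CPM under interferon-γ. Every treated library exceeded every untreated one for both genes, by 10.14 ± 0.368 for Dtx3l (log2, SE; 1130-fold, adjusted p = 3.06e-21) and 9.25 ± 0.274 for Parp9 (610-fold, adjusted p = 6.67e-24, edgeR). With kallisto's estimated counts summed over transcripts in place of the gene counts, the log2 change of Dtx3l at 8 h was 7.25 and that of Parp9 8.40, so the fold of Dtx3l in particular depends on how reads were assigned. Across the 20 group means the log2 CPM of the 2 genes had a Pearson correlation of 0.996, a description of groups that share the same treatments. With the other inducible members, their correlations ran from 0.939 (Dtx3l with Parp11) to 0.985 (Parp9 with Parp12 and with Parp14, and Dtx3l with Parp12). At 1 h Dtx3l read 8.12, 15.7, 5.50, 6.13 and 12.3 CPM under interferon-γ against 0.614 to 1.02 untreated (3.62 ± 0.315, adjusted p = 3.04e-10), a change of 2.03 with kallisto's estimates. For Parp14, Dtx3l and Parp9 alike, wild type replicate 2 and Nrf2 -/- replicate 3 were the 2 highest of the 5 treated libraries at 1 h. This was not particular to these genes, since the same 2 libraries were highest for Parp10 (0.847 and 0.317 CPM). For Parp3 (27.8 and 26.4 CPM), Parp12 (13.7 and 11.4) and Parp11 (30.8 and 29) the 2 highest were likewise 1 wild type and 1 Nrf2 -/- library.

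Parp10 differed from these genes in its timing. Parp10, a mono-ADP-ribosyltransferase with RNA recognition and ubiquitin-interaction motifs, read 0.298 and 0.847 CPM in wild type and 0.182, 0.146 and 0.317 CPM in Nrf2 -/- libraries at 1 h of interferon-γ, overlapping the untreated range of 0.083 to 0.350 CPM. The difference of 0.47 ± 0.397 did not pass the test (log2, SE; adjusted p = 0.869, edgeR). At 8 h the treated libraries read 66.5, 73.3, 73.8, 68.7 and 63.3 CPM against 0.052 to 0.204 CPM untreated, a 521-fold rise (9.03 ± 0.229, adjusted p = 3.85e-27). The treated level was higher again at 24 h (92.3 to 103 CPM) and at 48 h (119 to 127 CPM), with no overlap between successive hours. In a comparison of the treated libraries alone, chosen after the data were seen, the level rose by 0.49 from 8 to 24 h (log2, adjusted p = 0.00153) and by 0.34 from 24 to 48 h (adjusted p = 0.0199, edgeR).

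Parp12, a zinc-finger mono-ADP-ribosyltransferase with antiviral activity, read 2.74, 2.56, 2.45, 1.78 and 2.79 CPM in the untreated 8 h libraries and 298, 313, 313, 308 and 319 CPM under interferon-γ. The lowest treated library was far above the highest untreated one. The rise was 6.96 ± 0.122 (log2, SE; 124-fold, adjusted p = 1.54e-33, edgeR). At 1 h the treated libraries (7.48 to 13.7 CPM) already exceeded the untreated ones (4.72 to 5.68 CPM) by 0.99 on the log2 scale (adjusted p = 2.54e-09).

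Parp3, a mono-ADP-ribosyltransferase of double-strand break repair, had its highest treated level at 8 h and declined after it. It read 2.67, 2.48, 2.74, 1.73 and 1.71 CPM in the untreated 8 h libraries and 120, 139, 137, 125 and 125 CPM under interferon-γ, a rise of 5.81 ± 0.148 (log2, SE; 56.1-fold, adjusted p = 1.97e-27, edgeR). Its treated range then fell to 88.5 to 96.2 CPM at 24 h and 55.9 to 70.5 CPM at 48 h, and these ranges did not overlap. Among treated libraries alone the level fell by 0.51 from 8 to 24 h (log2, adjusted p = 0.000317) and fell by 0.47 from 24 to 48 h (adjusted p = 0.000584). At 1 h Parp3 had risen 5.29-fold (19.02 to 27.8 against 3.82 to 5.25 CPM, adjusted p = 1.66e-16).

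Parp11, a WWE-domain mono-ADP-ribosyltransferase reported to act on the type I interferon receptor pathway, had the highest untreated level of the 7 inducible genes per kilobase and the smallest fold at 8, 24 and 48 h. Untreated 8 h libraries read 29.9, 27.1, 30.4, 27.2 and 28.5 CPM and interferon-γ libraries 156, 176, 183, 162 and 167 CPM. The groups did not overlap, and the rise was 5.89-fold (2.56 ± 0.065 on the log2 scale, SE, adjusted p = 5.29e-30, edgeR). It was 6.25-fold at 24 h and 8.33-fold at 48 h (197 to 239 CPM). At 1 h the difference was small, 1.24-fold, with treated libraries at 24.7 to 30.8 CPM against 20.9 to 23.7 CPM untreated (adjusted p = 0.00085), and it did not pass in wild type alone (adjusted p = 0.173) or without wild type interferon-γ 1 h replicate 2 (adjusted p = 0.0565).

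Transcripts of Parp11 from its separate start sites responded to different degrees. The transcript that begins at base 127446840, just after the window holding the motif matches, is called the upstream transcript here, and the one that begins 6883 bases further on, at base 127453723, the downstream transcript. The upstream transcript made up 4.4% of the gene's estimated reads in untreated cells at 8 h (mean of 5 libraries, highest 10.1%) and 54.5% under interferon-γ (lowest 47.7%, highest 60.1%). Its amount is given as estimated CPM, kallisto's estimated reads of the transcript scaled to the library's total, in which reads shared by transcripts are divided by the estimate. At 8 h it averaged 1.19 ± 1.34 estimated CPM untreated (SD, n = 5), with 2.78 the highest, and 70.8 ± 16.8 under interferon-γ, where wild type libraries read 55 and 83.3 and Nrf2 -/- libraries 85.9, 79.5 and 50.2. The downstream transcript went from 19.9 to 39.5 estimated CPM while its share fell from 75.4% to 30.9%. Already at 1 h, when the gene total had risen 1.24-fold, the share of the upstream transcript was 30.2% (25.7% to 34.6%) against 0.821% untreated (highest 4.06%), and the downstream transcript stood at 8.94 to 11.3 estimated CPM against 14.4 to 17.6 untreated. Neither pair of ranges overlapped, and transcripts were not tested at this hour. At 24 and 48 h the share of the upstream transcript was 50.0% and 52.6%, against 6.35% and 6.23% untreated, and the highest untreated library at any of the 4 hours, at 16.6%, lay below the lowest treated one.

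**Figure D2:**
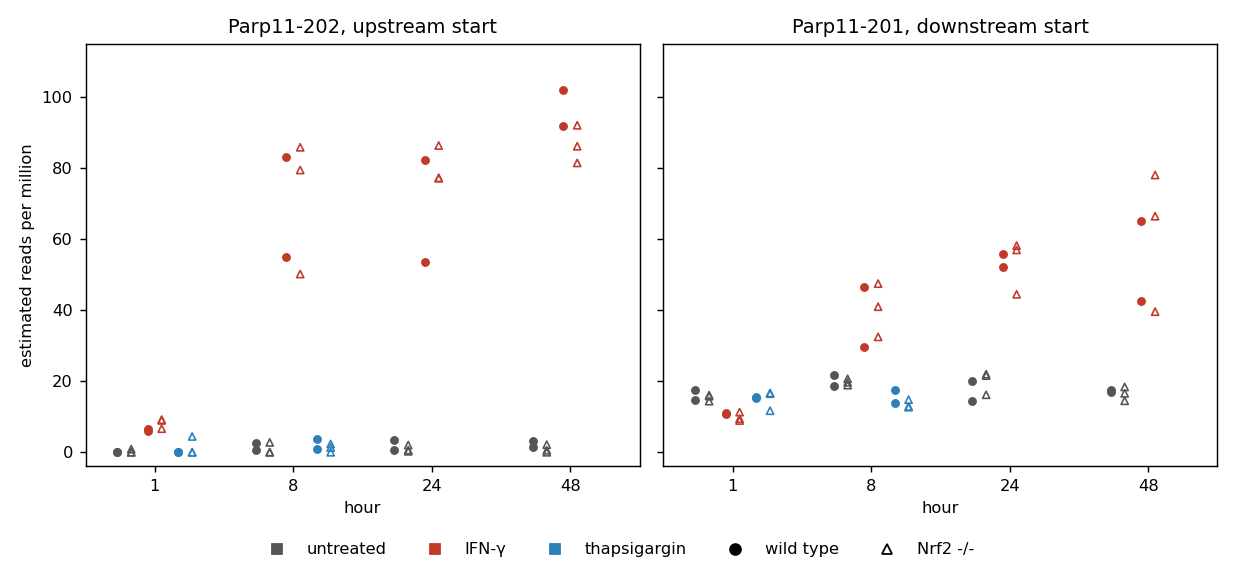
Estimated CPM (vertical axis, labelled as estimated reads) of the upstream and the downstream transcript of Parp11 in every library by hours and treatment, with filled circles for wild type and open triangles for Nrf2 -/- libraries. The upstream transcript goes from a mean of 1.19 to 70.8 at 8 h of interferon-γ, and the downstream one from 19.9 to 39.5.

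An edgeR model of each transcript's usage relative to its gene, added after the data were seen, gave the upstream transcript a log2 relative usage of 3.57, 3.05 and 3.05 at 8, 24 and 48 h (adjusted p = 1.94e-16, 1.08e-12 and 1.09e-12) and the downstream transcript one of -1.29, -1.08 and -1.19 (adjusted p = 0.00651, 0.0435 and 0.0167). Both transcripts rose in amount, the upstream one by 63.9-fold and the downstream one by 2.2-fold at 8 h. That model was fitted over all 58413 transcripts and called 1.12%, 1.38% and 1.07% of them at 8, 24 and 48 h. Member transcripts were examined where they averaged at least 10% of their gene's estimated reads. Some, such as the upstream Parp11 transcript, reached this minimum only through interferon-γ libraries. No count of member transcripts is therefore read against these shares. The usage p-values of such transcripts describe transcripts picked partly through the libraries where they are high, and are not independent support. The exact permutation test on shares (two-sided, 5 against 5 libraries) cannot go below p = 0.00794, and over 56562 tests its smallest adjusted p was 0.156, so it called 0 transcripts. Shares did not overlap between treated and untreated libraries for 3.42%, 5.51% and 6.34% of all transcripts at 8, 24 and 48 h. Outside Parp11 the untreated shares rest on 34 to 483 estimated reads over 5 libraries. With that depth a retained-intron transcript of Parp14 went from 56.1% to 2.17% of the gene at 8 h, a Parp9 transcript marked for nonsense-mediated decay from 47.7% to 0.614%, and a protein-coding Parp10 transcript from 4.39% to 47.6%. The usage model called the first of these at 8 h (adjusted p = 3.25e-08) and the Parp9 transcript (adjusted p = 5.76e-06), and did not call the Parp10 transcript (adjusted p = 0.0858).

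Parp1, Parp2 and Parp8 were the constitutive members. Parp1, the main DNA-break-sensing polymerase, was lower under interferon-γ at 8 h, at 662, 659, 613, 615 and 621 CPM against 786, 801, 749, 740 and 710 CPM untreated. The groups did not overlap, and Parp1 fell by 0.26 ± 0.044 on the log2 scale (adjusted p = 5.17e-06, edgeR). At 24 h it stood at 516 to 579 against 785 to 825 CPM, where it fell by 0.53 (adjusted p = 1.22e-13). At 48 h the sign turned, with 502 to 562 CPM treated against 396 to 472 CPM untreated (0.32, adjusted p = 7.69e-08). The treated level showed no called change between 24 and 48 h (-0.04, adjusted p = 0.465), while the untreated ranges of the same hours, 785 to 825 and 396 to 472 CPM, did not overlap.

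Parp2, the second break-sensing polymerase, showed no called difference at 1 and 8 h (0.01 and 0.08, adjusted p = 1 and 0.248) and was higher at 24 h, at 28.9, 30.1, 30.8, 33.5 and 34.4 CPM against 20.03, 16.3, 16.9, 17.2 and 20.7 CPM. These groups did not overlap (0.77 ± 0.057, 1.71-fold, adjusted p = 3.8e-15). At 48 h the difference was 1.44-fold (adjusted p = 2.06e-10). Parp8, a less studied mono-ADP-ribosyltransferase, read 99.1 to 108 CPM under interferon-γ at 8 h against 80.3 to 83.4 CPM (0.34 ± 0.043, adjusted p = 9.45e-09). It showed no called difference at 1 h (0.07, adjusted p = 0.633) or 24 h (-0.06, adjusted p = 0.22) and was 1.18-fold higher at 48 h (adjusted p = 1.35e-05). Markers of the oligodendrocyte lineage moved at the same hours, with 5, 6 and 5 of 10 called lower at 8, 24 and 48 h of interferon-γ and 0, 4 and 3 called higher. Of 7 neuronal markers 5, 3 and 2 were called higher and 0, 1 and 1 lower at these hours. Of 8 astrocyte markers 3, 2 and 1 were called higher and 1, 2 and 4 lower, with a median log2 change of -0.75 at 48 h. In these bulk libraries fewer cells of a type and less RNA per cell cannot be told apart, and the part of cell makeup in changes of the size seen for Parp1, Parp2 and Parp8 was not tested.

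**Figure D3:**
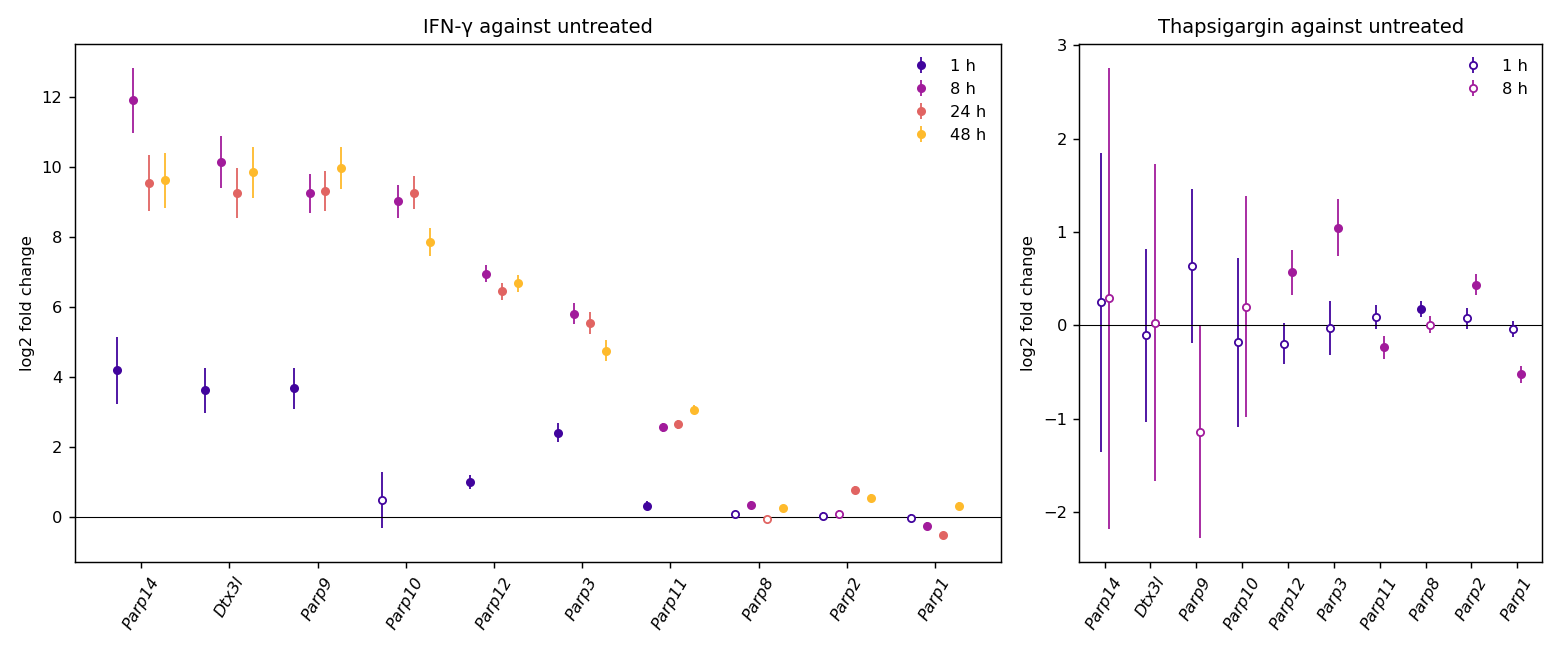
Log2 fold change against untreated cells of each gene at 1, 8, 24 and 48 h of interferon-γ and at 1 and 8 h of thapsigargin, with 95% confidence intervals and open markers where the test was not passed. Parp14 reaches 11.92 at 8 h of interferon-γ, whereas Parp8 stays between -0.06 and 0.34 at all 4 hours.

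At 24 h the size of the folds of Parp14, Dtx3l, Parp9 and Parp10 depends on a single untreated library. In Nrf2 -/- untreated 24 h replicate 2, Parp14 read 3.28 CPM, 9.18 times the next highest of the 5 untreated libraries, Dtx3l 2.32 CPM (8.67 times), Parp9 1.86 CPM (4.45 times) and Parp10 0.522 CPM (3.5 times). Parp12 (4.12 CPM) and Parp3 (2.72 CPM) were also highest there, at 1.3 and 1.1 times the next library, while Parp1, Parp2, Parp8 and Parp11 lay within the range of the others. The excess of Parp14, Dtx3l, Parp9 and Parp10 in that library amounted to 0.437% to 0.761% of their mean interferon-γ level at 24 h. It was also seen in other genes. Of 17 genes picked for patterns most like the inducible members, 13 were also highest in that library. The pick used group means that include this library, which favours such genes, so the count is only a description. The share of all genes highest there was not examined. Over the 17 the excess had a median of 0.453% (-0.0216% to 5.77%), and Iigp1 read 21 CPM against at most 0.197 CPM in the others. The source of this excess was not tested. With that library, the 24 h log2 fold changes were 9.56 for Parp14, 9.26 for Dtx3l, 9.31 for Parp9 and 9.27 for Parp10. Without it they were 10.82, 10.46, 10.001 and 9.87, and Parp14 was 10.42 without wild type untreated 24 h replicate 1. With kallisto's estimates and all libraries they were 8.80, 7.20, 8.41 and 7.68. All were called in each of these settings.

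The inducible genes differed in their time course in the treated libraries. As a percentage of each gene's own highest mean treated level, Parp12 stood at 100% at 8 h, 83.8% at 24 h and 95.1% at 48 h, and Dtx3l at 95.7%, 94.8% and 100%. Parp9 (84.3%, 86.1% and 100%) and Parp14 (80.6%, 72.5% and 100%) likewise had most of their level by 8 h. Parp10 climbed from 56.5% through 79.3% to 100%, and Parp11 from 77.3% through 84.5% to 100%. Parp3 ran the other way, from 100% through 70% to 50.6%. At 1 h Parp3 and Parp11 stood at 18.2% and 12.7%, Parp12 and Dtx3l at 3.3% and 3.2%, and Parp9, Parp14 and Parp10 at 2%, 0.9% and 0.3%.

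**Figure D4:**
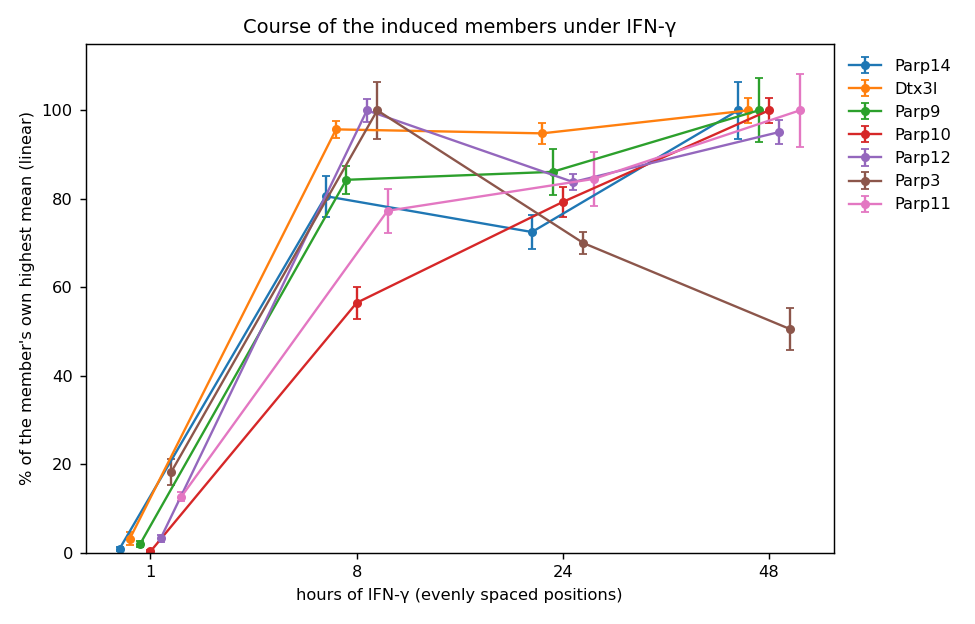
Mean interferon-γ level of the 7 inducible genes at 1, 8, 24 and 48 h as a percentage of each gene's own highest mean, with error bars giving the SD over 5 libraries and hours spaced evenly. Parp3 falls to 50.6% at 48 h whereas Parp10 rises from 56.5% at 8 h to its highest level at 48 h.

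Tested as a change of the response, that is with the untreated libraries of each hour taken into account, Parp2 rose from 8 to 24 h (0.69 ± 0.079, adjusted p = 3.94e-09, edgeR) and Parp1, Parp8 and Parp12 fell (-0.27, -0.41 and -0.50, adjusted p = 0.000514, 8.35e-07 and 0.00916). This was 1 of 10 called higher and 3 called lower, against 15.8% and 17.2% of all genes. Parp12 lost its call in wild type alone (adjusted p = 0.593) and when replicate 1 of wild type untreated 24 h was left out (adjusted p = 0.0601), and Parp2 in treated libraries alone (adjusted p = 0.0614). From 24 to 48 h, Parp1, Parp8 and Parp11 were called higher (22% of all genes) and Parp2, Parp3 and Parp10 lower (20.9% of all genes). The value for Parp10, -1.40 ± 0.466 (adjusted p = 0.0145), was -2.001 without Nrf2 -/- untreated 24 h replicate 2, -2.43 in wild type alone (adjusted p = 0.0116) and -0.37 in Nrf2 -/- alone, where the call was lost (adjusted p = 0.656), as it was without wild type untreated 24 h replicate 1 (adjusted p = 0.0507). Its sign is opposite to that of the 0.34 among treated libraries alone, and its untreated level was 0.314 to 0.748 CPM at 48 h and 0.064 to 0.149 CPM in the other 24 h libraries. The value for Parp1 was 0.85 against -0.04 in treated libraries alone, and Parp8 was not called there (adjusted p = 0.9). Parp3 lost its call in Nrf2 -/- alone (adjusted p = 0.105). Parp2 lost its call in wild type alone (adjusted p = 0.344), with kallisto's estimates (0.118), with only the groups compared (0.0738) and without wild type untreated 24 h replicate 2 (0.0762).

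Levels are compared between genes per kilobase of merged exons. In untreated cells at 8 h Parp1 led at a mean of 144 CPM per kb, followed by Parp8 (9.2), Parp2 (7.38) and Parp11 (4.07), whose ranges over 5 libraries did not overlap. Parp3 (0.626) and Parp12 (0.624) overlapped each other, and below them came Parp9 (0.0798), Dtx3l (0.0456), Parp10 (0.0303) and Parp14 (0.0122), each overlapping its neighbour in the order. At 8 h of interferon-γ Parp1 still led at 121 CPM per kb, then Parp12 at 77.4, while Dtx3l (52), Parp9 (49.3) and Parp14 (47.7) overlapped. Parp3 (34.9), Parp11 (24), Parp10 (16.2), Parp8 (11.7) and Parp2 (7.82) followed without overlap. Parp14, last of the 10 in untreated cells, overlapped Dtx3l and Parp9 after 8 h of interferon-γ.

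Thapsigargin, which causes endoplasmic reticulum stress, gave no called rise of Parp14, Dtx3l, Parp9 or Parp10 at either hour. At 1 h Parp8 alone among the members was called higher (0.18 ± 0.043 on the log2 scale, adjusted p = 0.00211, edgeR), against 12.9% of all genes, and the call was lost in wild type alone (adjusted p = 0.0686). Of the members, 0 were lower at 1 h, against 7.52% of all genes, with 0 at an unadjusted p below 0.05 and 0 by DESeq2. At 8 h Parp3, Parp12 and Parp2 were called higher and Parp1 and Parp11 lower, against 34.3% and 32.9% of all genes, so neither count of members was above the background. Parp3 read 3.97, 4.70, 5.10, 5.53 and 5.02 CPM against 1.71 to 2.74 CPM untreated, a 2.07-fold rise without overlap (1.05 ± 0.152, adjusted p = 1.86e-07). Parp12 rose by 0.57 ± 0.12 (3.09 to 4.31 against 1.78 to 2.79 CPM, adjusted p = 8.47e-05) and Parp2 1.35-fold (34.7 to 37.3 against 24.6 to 28.7 CPM, adjusted p = 5.98e-09). Parp1 fell by 0.53 (476 to 575 against 710 to 801 CPM, adjusted p = 9.82e-14) and Parp11 fell by 0.24 (23.1 to 25.2 against 27.1 to 30.4 CPM, adjusted p = 0.00114), a call lost in wild type alone (adjusted p = 0.0817).

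Parp14, Parp10, Dtx3l and Parp9 stayed below 1 CPM in every thapsigargin library. Parp9 read 0.425, 0.134, 0.204, 0.029 and 0.099 CPM at 8 h of thapsigargin, overlapping its untreated values, and its difference of -1.14 ± 0.559 did not pass the test (adjusted p = 0.0729), although 6 alternative settings called it lower, DESeq2 (adjusted p = 0.0116) and Nrf2 -/- alone (adjusted p = 0.0394) among them. Set directly against interferon-γ at 8 h, 9 of the 10 members were lower under thapsigargin, against 33.8% of all genes. Parp14 was 3170-fold lower, a log2 difference of -11.63 that was -9.865 with kallisto's estimates, and its thapsigargin level rests on 2 to 9 reads per library. Parp12 was 83.8-fold lower. Parp2 was the exception, 1.27-fold higher (adjusted p = 5.56e-07), against 34.1% of all genes called higher. Of the 10 oligodendrocyte lineage markers 8 were called lower and 1 higher at 8 h of thapsigargin. Of 7 neuronal markers 5 were called higher and 1 lower (median 1.14), and of 8 astrocyte markers 2 higher and 4 lower (median -0.52). The part of cell makeup in the changes of Parp1, Parp2 and Parp11 was not tested.

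Untreated cells changed over the hours of the experiment as well. Between 1 and 48 h Parp1, Parp2, Parp3, Parp8, Parp12 and Dtx3l fell, 6 of 10 against 33.6% of all genes, and Parp10 and Parp11 rose, 2 of 10 against 34.5%. Parp1 fell by 0.61 on the log2 scale (from 636 to 694 CPM to 396 to 472 CPM), Parp2 fell by 0.71, Parp12 fell by 0.85, Parp3 fell by 0.87 and Parp8 fell by 0.29. Parp10 rose by 1.08 ± 0.367 (0.083 to 0.350 against 0.314 to 0.748 CPM, overlapping ranges, adjusted p = 0.00983), and Parp11 rose by 0.23 (adjusted p = 0.00184). The fall of Dtx3l (-1.23 ± 0.544, adjusted p = 0.0458, edgeR) concerned levels of 0.614 to 1.02 CPM at 1 h and 0.225 to 0.570 CPM at 48 h. It was lost in 13 of 19 alternative settings, with adjusted p between 0.00127 and 0.772, and was 0.08 with kallisto's estimates. The call of Parp10 ended when replicate 1 of wild type untreated 48 h was left out (adjusted p = 0.0532), in wild type alone (adjusted p = 0.0988) and in Nrf2 -/- alone (adjusted p = 0.0553), and its value was 2.42 with kallisto's estimates. Parp14 read 0.075 to 0.331 CPM at 1 h and 0.534 to 0.854 CPM at 48 h, without overlap. Its difference of 1.43 did not pass edgeR's test (adjusted p = 0.0581). It was called higher by DESeq2 (adjusted p = 0.0101) and by edgeR with only the groups compared (adjusted p = 0.00117). Over the same interval 7 of 8 astrocyte markers were called higher and 0 lower (median 2.32), 6 of 10 oligodendrocyte lineage markers higher and 4 lower (median 0.79), and 1 of 7 neuronal markers higher and 3 lower (median -1.33). Their part in these changes was not tested.

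The loss of Nrf2 was compared in each treatment as the mean over its hours. Nfe2l2 itself differed by -4.82 ± 0.329 in untreated, -6.10 ± 0.363 in interferon-γ and -4.45 ± 0.463 in thapsigargin libraries on the log2 scale (SE), lower in Nrf2 -/- each time (adjusted p = 4.17e-11, 9.76e-13 and 1.67e-06, edgeR). No member was called between the genotypes in any treatment. Over all genes 0.0243%, 0.0547% and 0.51% were called in untreated, interferon-γ and thapsigargin cells, that is 4, 9 and 84 genes. At an unadjusted p below 0.05, 1 member (Parp3, lower in Nrf2 -/-) passed in untreated cells, 2 in interferon-γ cells (Parp2, higher, and Parp10, lower) and 0 in thapsigargin cells, and DESeq2 called 0 members in all 3.

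The interval of the difference was narrow for the well-measured members. In interferon-γ cells the log2 difference of Nrf2 -/- from wild type was 0.02 for Parp11 (95% interval -0.06 to 0.11), 0.01 for Parp3 (-0.15 to 0.17), -0.09 for Parp12 (-0.22 to 0.04) and -0.21 for Parp14 (-0.56 to 0.14). Parp10 gave the lowest value, -0.36 (-0.66 to -0.06, adjusted p = 0.444). The interferon-γ response itself, as a mean over 4 hours, differed between the genotypes by -0.81 for Parp14 (95% interval -2.10 to 0.47), -0.65 for Parp9 (-1.42 to 0.13) and 0.12 for Parp2 (0.00 to 0.23). For the constitutive Parp1 it was 0.01 (-0.08 to 0.10). At 1, 8, 24 and 48 h the Parp14 response was 4.35, 12.25, 10.76 and 9.54 in wild type. In Nrf2 -/- it was 4.01, 11.59, 8.35 and 9.70. That of Parp9 was 3.98, 9.345, 10.43 and 9.74 in wild type and 3.36, 9.16, 8.18 and 10.21 in Nrf2 -/-. For both genes the widest gap was at 24 h, where Nrf2 -/- untreated replicate 2 had raised levels. Of all genes 0% were called for a genotype difference in the interferon-γ response and 0% for one in the thapsigargin response. At an unadjusted p below 0.05, 1 member (Parp2) passed for the interferon-γ response and 0 for thapsigargin, and DESeq2 called 0 members for either. Over all genes 221 higher and 292 lower passed unadjusted for interferon-γ and 455 and 842 for thapsigargin, while DESeq2 called 0 higher and 2 lower in each. These intervals are not adjusted for the number of genes, and that of Parp10 excludes 0 although Parp10 was not called. With 2 and 3 libraries per group, true differences of any size within an interval cannot be told apart. The genotypes were not tested hour by hour.

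**Figure D5:**
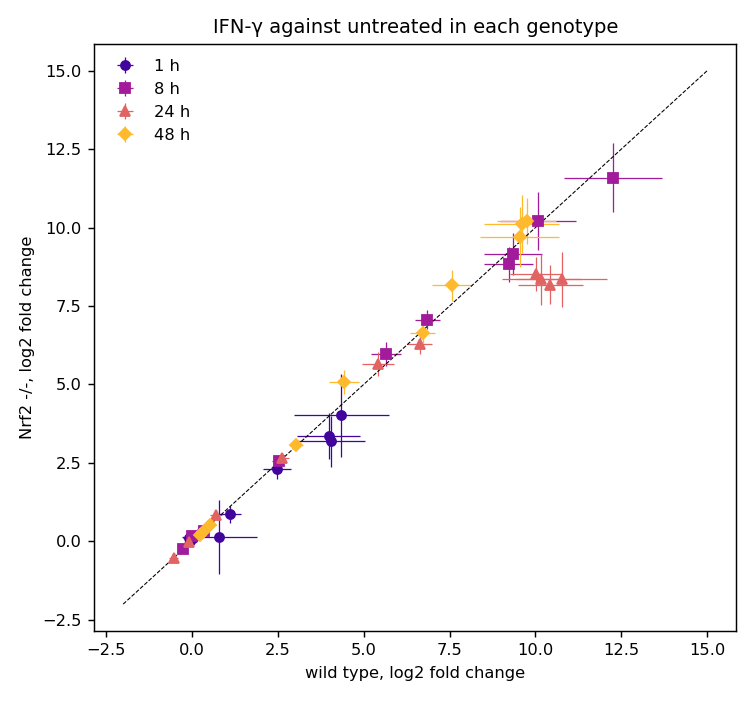
Log2 fold change of interferon-γ against untreated cells in wild type (horizontal axis) and in Nrf2 -/- (vertical axis) for each gene, with 95% confidence intervals and the line of equal values. At 24 h Parp14 lies below the line, at 10.76 in wild type and 8.35 in Nrf2 -/-, the group whose untreated replicate 2 library has 3.28 CPM of Parp14.

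The genes with the most similar patterns over the 20 group means, by Pearson correlation of log2 CPM, differed between the members. Tgtp1 and Tap1 were the nearest to both Parp9 (r = 0.9944 for Tgtp1) and Dtx3l (0.9933), Iigp1 to Parp14 (0.9926), Tap2 to Parp12 (0.9947), Trim12c to Parp10 (0.995), Oas1a to Parp11 (0.9958) and Fgl2 to Parp3 (0.9914). The constitutive genes had looser neighbours, Dtx4 for Parp2 (0.9656), Bag2 for Parp1 (0.9437) and Tnik for Parp8 (0.865). The group means share treatments, so these values are descriptions.

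The other genes of the pathway are described from lists drawn up by known function. Over all genes 2.73%, 19.4%, 27.6% and 27.3% were called higher and 0.911%, 20.4%, 28.4% and 28.5% lower at 1, 8, 24 and 48 h of interferon-γ, and no count of a list is read as differing from these shares. Among 7 further genes of the PARP family, 2 were called higher at each of 8, 24 and 48 h of interferon-γ. These were Zc3hav1, the antiviral zinc-finger protein of the family (5.33, 5.63 and 5.94 on the log2 scale), and Parp4, the vault-associated member (2.83, 1.69 and 1.35). At the same hours 2, 3 and 3 were lower, Tnks2 at all 3 hours (-0.18, -0.65 and -0.34). Tiparp was the only one of the 7 called at 1 h (-0.47 ± 0.054, adjusted p = 1.59e-08). Of 13 tested genes that remove or read ADP-ribose, 0, 1, 5 and 6 were higher and 0, 3, 3 and 3 lower at 1, 8, 24 and 48 h, with list medians of 0.02, -0.07, 0.12 and 0.13. Macrod1, an ADP-ribose hydrolase, fell by 1.07 at 24 h and fell by 1.20 at 48 h. Of 14 tested genes of NAD supply and use, 1, 2, 5 and 4 were higher and 0, 4, 4 and 1 lower, with Nampt, the rate-limiting enzyme of NAD salvage, higher by 1.25, 0.74 and 1.84 at 8, 24 and 48 h, and Sirt2, an NAD-dependent deacetylase abundant in oligodendrocytes, lower at 24 h (-1.69).

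Of the other 4 Deltex family genes, 1, 3 and 2 were higher and 1, 0 and 0 lower at 8, 24 and 48 h, led by Dtx4 (0.57, 1.40 and 1.06). Of 9 base excision and strand-break repair partners of PARP1, 0, 2, 4 and 3 were higher and 0, 2, 3 and 2 lower at 1, 8, 24 and 48 h of interferon-γ, with Xrcc5 higher by 0.56, 0.74 and 0.54 and Lig3 lower (-0.14, -0.29 and -0.23) at 8, 24 and 48 h. At 8 h of thapsigargin 34.3% of all genes were higher and 32.9% lower. There, 0 of the 13 removal and reading genes were higher and 8 lower (median -0.38). Of the 7 further genes of the PARP family 5 were higher and 1 lower.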

How the data were processed

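RNA sequencing of 50 libraries in 20 groups was analysed from 2 deposited tables. The authors deposited raw read counts per gene and, in the second table, estimated counts per transcript. The submitters' processing notes name STAR, featureCounts, kallisto and edgeR without versions, and the genome build, annotation and strand setting of the counting were not given in the sources used here. Replicate numbers were given in accession order within a group and only name a library. Library genotypes followed the titles, including for 3 libraries whose genotype tag differs. Gene names and positions came from GENCODE M21, which matched 38872 of 39056 gene entries. Promoter windows came from the RefSeq table of GRCm38.p6, which held 7 of the 10 members.

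Genes were tested with edgeR 4.0.16 in R 4.3.3 on the gene counts (filterByExpr with a minimum count of 10 and a total of 15, TMM scaling, robust quasi-likelihood fit of all 20 groups with a common dispersion of 0.00983). Of the 16460 genes tested, all 10 members passed the filter, also on the untreated and thapsigargin libraries alone. 15 comparisons were made, each adjusted by Benjamini-Hochberg over all genes tested and called at 0.05, with both genotypes weighted equally. CPM values use TMM-scaled library sizes, and levels per kb divide them by the merged exon length. Estimated counts were rounded where they were summed per gene for a test. Transcript shares were examined for member transcripts averaging at least 10% of their gene's estimated reads.

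Alternatives were DESeq2 1.42.0, its size factors, no filter on low counts, only the groups of a comparison, each genotype alone, the 3 conflicting libraries as wild type, summed transcript estimates, a transcript share of 20% and leaving out each library. The comparison of treated libraries alone and the model of relative transcript usage were chosen after seeing the data. The members, pathway lists and marker lists were chosen with earlier results of these data known, and the genes named from a list were those called with the greatest change, at most 3 in each direction, with the 3 genes most correlated with each member. Totals of 32.25 M to 54.66 M counts per library set the precision, and no interval here covers more than the spread between libraries. Results for 1 of the pathway lists are not reported here.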

Additional observations from a re-analysis of the deposited data

Results flagged for a closer look

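Each member was examined in each treatment and hour for a library far from the other 4, by the gap to the nearest library as a share of the whole range (above 0.71). Of 100 such sets 9 passed, and chance alone passes about 1 in 20. Of these, 4 came from the single library Nrf2 -/- untreated 24 h replicate 2, where Parp14 stood at 3.28 CPM, Dtx3l at 2.32 CPM, Parp9 at 1.86 CPM and Parp10 at 0.522 CPM, each the highest of its set. In wild type interferon-γ 1 h replicate 2 Parp10 was high at 0.847 CPM. Dtx3l was high at 0.997 CPM in Nrf2 -/- thapsigargin 1 h replicate 1 and at 0.57 CPM in wild type untreated 48 h replicate 2. Parp3 was high at 96.2 CPM in Nrf2 -/- interferon-γ 24 h replicate 2, and Parp1 was low at 502 CPM in wild type interferon-γ 48 h replicate 1.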

How the results depend on the processing

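Over 150 member results, of which 68 passed the test, 3570 values under 60 alternative settings (50 of them leaving out 1 library) gave 3522 with the same direction and side of the threshold, 30 that lost the call, 15 that gained one and 3 that changed sign. The sign changed for Dtx3l in untreated 48 h against 1 h with kallisto's estimates (0.078, adjusted p = 0.772, against -1.23), and for the response change from 24 to 48 h in treated libraries alone for Parp1 (-0.042 against 0.85) and Parp10 (0.34 against -1.40). Counts of called members are listed here only where they moved by more than a factor of 1.5, and smaller moves are left out. The shares of all genes in the main setting stand above with each comparison. In wild type alone, 0 members in place of 1 were higher at 1 h of thapsigargin, 1 in place of 2 lower at 8 h of thapsigargin and 1 in place of 2 higher in untreated 48 h against 1 h. In Nrf2 -/- alone that last count was also 1, and 1 member in place of 3 was lower from 24 to 48 h. Leaving out 1 library gave 1 to 2 members higher in untreated 48 h against 1 h. The model of relative transcript usage called 23 transcript tests of members, some of them for transcripts that reached the 10% minimum only through treated libraries. Over all transcripts it called 1.12%, 1.38% and 1.07% at 8, 24 and 48 h, and the count is not read against these shares. The exact permutation test on shares called 0 of all transcripts, its smallest adjusted p being 0.156, so the 2 counts are no contrast. With summed kallisto estimates the interferon-γ folds of Dtx3l were 2.03, 7.25, 7.20 and 6.77 at 1, 8, 24 and 48 h, and those of Parp14 at 8 h, Parp10 at 24 h and Parp10 at 48 h were 10.12, 7.68 and 6.07 (log2). The cause of these differences was not tested. No paired analysis was possible because the labels give no replicate numbers that tie libraries across groups. Depth limits the folds of genes with fewer than 1 CPM untreated.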
